A study of Mus musculus with 4 samples.

Results

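The RIG-I-like receptor and MAVS pathway is described here through 10 mouse genes, chosen by name: Ddx58, Ifih1, Dhx58, Mavs, Trim25, Rnf135, Tbk1, Ikbke, Irf3 and Traf3. They are 10 of the 33783 genes with a value in any of the 4 libraries. All 10 were in the liver values, and 4 of them (Dhx58, Trim25, Rnf135 and Tbk1) had values in both embryo libraries. Traf3 was in addition in 1 embryo library, and the other 5 were not analysed here in embryos.

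Total RNA was sequenced from whole embryos at E11.5 (strain label C57B16/N) and from embryonic livers at E15.5 (strain label C57B6/J). In each tissue 1 library was labelled Adar1-/- Mavs-/- and 1 was labelled Adar1-/-, so all groups carry the Adar1-/- label and none of the libraries analysed is labelled wild type. There were no replicates: no difference has a replicate check, no p-value was computed, and each comparison sets a library beside another library rather than a genotype beside another genotype. The sources used here do not say how the alleles were made or whether RNA of several animals was pooled. By the labels, the comparison asks how RNA levels in a mouse without Adar1 differ when Mavs is lost as well.

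ADAR1 is an enzyme that turns adenosines of double-stranded RNA into inosines, and mouse embryos without it die before birth with a strong interferon response. RIG-I-like receptors are cytoplasmic helicases that recognise double-stranded or otherwise unusual RNA and pass the signal to MAVS, an adaptor on the mitochondrial outer membrane. MAVS recruits TRAF ubiquitin ligases and the kinases TBK1 and IKKε, which phosphorylate the transcription factor IRF3 and so start transcription of type I interferon genes. Several genes of the pathway, the receptors among them, are themselves interferon-inducible.

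Levels are FPKM, a read density per transcript length and per library size, summed over the isoforms of a gene. The 2 values in parentheses after a level are the authors' lower and upper bounds, which cover estimation within a library only. Ratios compare FPKM plus 1 on the log2 scale, Adar1-/- Mavs-/- over Adar1-/-, after 1 scaling factor per tissue (1.34 in embryos and 0.995 in liver, both on the Adar1-/- Mavs-/- library). That scale understates differences of genes with low levels. A gene was counted from 1 FPKM in either library, and was called 2-fold apart where the log2 ratio reached 1 or -1.

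Coverage per FPKM, a sign of depth, was 5.62 in the Adar1-/- Mavs-/- embryo library and 3.48 in the Adar1-/- one, and for the livers 7.13 and 8.58 in that order. Embryo values of both libraries cover chromosomes 10 and 11 and chromosome 12 to 11.7 Mb. In liver, Adar (mm9 chr3:89518944-89557368) had 4.11 FPKM in the library labelled Adar1-/- Mavs-/-. Isoform spans there, introns included, left no gap over the gene, but such spans cannot show a missing exon. Adar had 5.56 FPKM in the library labelled Adar1-/-, where no isoform above 0 spanned 16246 bases of it. Of its 8 reference isoforms, 3 were above 0 in the library labelled Adar1-/- Mavs-/- and 0 in the library labelled Adar1-/-, so that the liver RNA gives the stretch without isoforms to 1 of the 2 libraries that share the Adar1-/- label. The liver libraries are named by their labels throughout for this reason. Adar and Mavs lie outside the embryo values, so the embryo labels could not be set against RNA of either gene. Hepatocyte markers were abundant in both (10 of 10 markers from 1 FPKM), summing to 15309 FPKM under the Adar1-/- Mavs-/- label and 14503 FPKM under the Adar1-/- label. Their medians ran the other way, 750 and 856 FPKM in the same order. Skeletal muscle markers summed to 1.72 FPKM in the library labelled Adar1-/- Mavs-/- (0 of 9 from 1 FPKM, with Myod1 listed at 0) and to 83.6 FPKM in the library labelled Adar1-/- (8 of 9 from 1 FPKM). Macrophage markers summed to 206 and 143 FPKM (Cd68 listed at 0 in the library labelled Adar1-/-), endothelial markers to 67.2 and 107 FPKM (Ramp2 listed at 0 in the library labelled Adar1-/- Mavs-/-), the 7 of 10 erythroid markers in the liver values to 2642 and 2046 FPKM and lymphoid markers to 17.0 and 14.1 FPKM in the same order. The part of these differences in the results that follow was not tested. In whole embryos, the 3 erythroid markers in the values summed to 7613 and 8885 FPKM, the 4 endothelial ones to 68.6 and 60.8 FPKM and the 2 macrophage ones to 3.91 and 0.960 FPKM (Cd68 listed at 0 in the Adar1-/- library), the Adar1-/- Mavs-/- library before the Adar1-/- library. The single muscle and lymphoid markers there had 4.71 and 13.0 FPKM and 2.55 and 4.51 FPKM in the same order, and no hepatocyte marker was in the embryo values.

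The promoters are shown because several genes of the pathway are known targets of the interferon-driven factors of the IRF and STAT families. RefSeq (GRCm38.p6) promoters, running from 250 bases before to 50 after the gene start, were matched for 9 of the 10 genes. The IRF core motif AANNGAAA was in Ddx58, Ifih1, Trim25 and Ikbke, on either strand, and in 23.9% of all 32851 promoters of that length. The ISRE core motif GAAANNGAAA, which contains the IRF core, was in Ddx58 and Ifih1 and in 3.44% of all promoters. The GAS motif TTCNNNGAA was in none of the 9, against 8.3% of all promoters. In 3 genes a match lay at or within 50 bases after the start, and these windows of 30 bases are given 5′ to 3′ on the strand of the gene with the motif letters in capitals.
Ddx58 (chr4:40239804-40239833, minus strand): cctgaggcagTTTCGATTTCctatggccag
Ifih1 (chr2:62646206-62646235, minus strand): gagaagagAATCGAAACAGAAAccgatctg
Trim25 (chr11:88999388-88999417, plus strand): ctcctgttcagTTTCGATTccttcctcgct
The 8 letters of the Trim25 match are the same as the first 8 of the Ddx58 match, in the same orientation.
Upstream, the Ddx58 promoter held a second IRF core from 59 to 52 bases before the start, and the Trim25 match began 4 bases before it. The 250 bases before the start are shown for these 2 genes, a receptor and the ligase that acts on it.
Ddx58 (chr4:40239826-40240075, minus strand): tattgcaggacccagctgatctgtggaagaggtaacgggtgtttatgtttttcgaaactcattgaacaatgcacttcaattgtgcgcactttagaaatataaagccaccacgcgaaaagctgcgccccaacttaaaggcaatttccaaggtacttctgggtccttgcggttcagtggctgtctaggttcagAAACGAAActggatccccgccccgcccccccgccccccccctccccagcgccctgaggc
Trim25 (chr11:88999153-88999402, plus strand): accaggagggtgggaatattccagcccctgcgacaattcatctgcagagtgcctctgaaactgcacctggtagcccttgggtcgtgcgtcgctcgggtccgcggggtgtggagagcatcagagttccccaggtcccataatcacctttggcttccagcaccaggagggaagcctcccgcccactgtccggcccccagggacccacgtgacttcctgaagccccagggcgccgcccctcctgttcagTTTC
The 4 capitals that end the Trim25 stretch are the first letters of the match shown whole in its window. A match is a description of letters and not of a site in use.

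In whole embryos, 2 of the 4 genes were 2-fold or more lower in the Adar1-/- Mavs-/- library, the receptor gene Dhx58 and the ligase gene Trim25, and 0 were 2-fold or more higher. Over all 1944 counted embryo genes, 9.67% were 2-fold or more lower, 6.69% 2-fold or more higher and 16.4% either way, and the median log2 ratio was -0.11, against -1.04 over the 4 genes. None of the 4 genes lies near -1.04, which falls between Dhx58 (-2.00) and Tbk1 (-0.08), so it is no shared shift. In bulk RNA, fewer cells of a type and less RNA per cell cannot be told apart.

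Dhx58 encodes LGP2, a RIG-I-like receptor that lacks signalling domains and modulates the other receptors (mm9 chr11:100556018-100565957). It had 0.552 FPKM (0.343 to 0.770) in the embryo Adar1-/- Mavs-/- library, against 5.97 FPKM (5.02 to 6.93) in the embryo Adar1-/- library. The bounds lie far apart, and the log2 ratio was -2.00 (-2.44 to -1.57 by the bounds), lower than all but 64 of the 1944 counted genes (3.29%). The full-length reference isoform ENSMUST00000017974 stood at 0 in the list of the Adar1-/- Mavs-/- library, against 1.96 FPKM in the Adar1-/- library. In liver Dhx58 was below the 1 FPKM needed to be counted in both libraries, with 0.910 FPKM (0.555 to 1.27) in the library labelled Adar1-/- Mavs-/- and 0.703 FPKM (0.555 to 0.851) in the library labelled Adar1-/-. Over the 4 libraries, by FPKM as deposited, the embryo Adar1-/- library stood 6.56-fold above the next, the liver library labelled Adar1-/- Mavs-/-. Each of the other 3 overlapped its neighbour in the order. An antisense gene, Dhx58os, overlaps Dhx58, and assembled isoforms counted under Dhx58 reached over it in all 4 libraries.

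Trim25 encodes a ubiquitin ligase that modifies RIG-I and helps to activate it (mm9 chr11:88860641-88881647). It had 0.342 FPKM (0.263 to 0.421) in the embryo Adar1-/- Mavs-/- library, against 11.1 FPKM (9.35 to 12.8) in the embryo Adar1-/- library. The log2 ratio was -3.05 (-3.35 to -2.73 by the bounds), the lowest of the 10 genes in either tissue, and 34 of the 1944 counted genes were lower (1.75%). The size depends on which isoforms are summed: the ratio was -2.18 with reference isoforms only and -2.28 with all fragments set per length of the longest reference isoform, and it stayed 2-fold or more lower under all 10 alternatives run, as did Dhx58, whose values then ran from -3.60 to -1.56. Alternatives that only change which genes are counted leave every ratio as it was, so they could not have changed these. The full-length isoform ENSMUST00000000284 (5566 bases) had 0.168 FPKM in the Adar1-/- Mavs-/- library and 2.36 FPKM in the Adar1-/- library. Assembled blocks without a symbol inside the span of Trim25 enter none of these values, but they come from the same libraries and are no independent measurement. There were 0 in the Adar1-/- Mavs-/- library and 9 in the Adar1-/- library, holding a length-weighted FPKM of 13.5 (FPKM times length in kilobases). How such blocks divide between the libraries over all genes was not computed. Dhx58 had 0 such blocks in the Adar1-/- Mavs-/- library and 1 in the Adar1-/- library.

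In liver the Trim25 level did not separate the libraries. It had 8.28 FPKM (7.78 to 8.77) in the library labelled Adar1-/- Mavs-/- and 7.57 FPKM (7.31 to 7.83) in the library labelled Adar1-/-, with overlapping bounds and a log2 ratio of 0.11. The isoforms behind these sums differed, however. In the library labelled Adar1-/- Mavs-/- the full-length ENSMUST00000000284 was listed at 0, and it had 5.40 FPKM in the library labelled Adar1-/-, whereas the 1433-base ENSMUST00000100627 had 3.71 FPKM in the library labelled Adar1-/- Mavs-/- and was listed at 0 in the library labelled Adar1-/-. Weighted by length (FPKM times isoform length in kilobases, summed, which counts fragments rather than their density), Trim25 had a length-weighted FPKM of 24.8 in the library labelled Adar1-/- Mavs-/- and 52.0 in the library labelled Adar1-/-, and per length of the longest reference isoform the log2 ratio turned to -0.91. Over the 4 libraries, by FPKM as deposited, the order of Trim25 was embryo Adar1-/-, then the overlapping liver libraries, then embryo Adar1-/- Mavs-/-. That last library stood 22.1-fold below the liver library labelled Adar1-/-, which differs in tissue, age and strain label.

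Rnf135, which encodes Riplet, another ubiquitin ligase of RIG-I (mm9 chr11:79997353-80013259), had 2.39 FPKM (1.61 to 3.16) in the embryo Adar1-/- Mavs-/- library and 3.19 FPKM (2.39 to 3.98) in the embryo Adar1-/- library. After scaling the log2 ratio was 0.00 (-0.66 to 0.62 by the bounds), and its sign changed between the alternatives, which ran from -0.89 to 0.11. In liver it had 1.82 FPKM (1.47 to 2.16) in the library labelled Adar1-/- Mavs-/- and 2.69 FPKM (2.30 to 3.09) in the library labelled Adar1-/-, a log2 ratio of -0.40 with bounds apart. Neighbouring libraries in its order over the 4 overlapped throughout.

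Tbk1 encodes the kinase that phosphorylates IRF3 (mm9 chr10:120983511-121023850, the span of its 1 reference isoform). It had 6.41 FPKM (5.84 to 6.98) in the embryo Adar1-/- Mavs-/- library and 9.11 FPKM (8.45 to 9.77) in the embryo Adar1-/- library, and after scaling the log2 ratio was -0.08 (-0.29 to 0.13 by the bounds). With TPM, which shifted the median ratio of all counted embryo genes by -0.93, it was -1.01. With reference isoforms only it was -1.33, since the full-length ENSMUST00000020316 had 1.14 FPKM in the Adar1-/- Mavs-/- library and 5.24 FPKM in the Adar1-/- library. The full-length isoform was thus over 2-fold apart while the sum over isoforms was not, and per length of the longest reference isoform the ratio was -0.42. The as-deposited levels of Tbk1 were apart between all neighbouring libraries, with the liver library labelled Adar1-/- Mavs-/- first (15.3 FPKM), then the liver library labelled Adar1-/- (12.4 FPKM) and the embryo libraries below both.

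**Figure D1:**
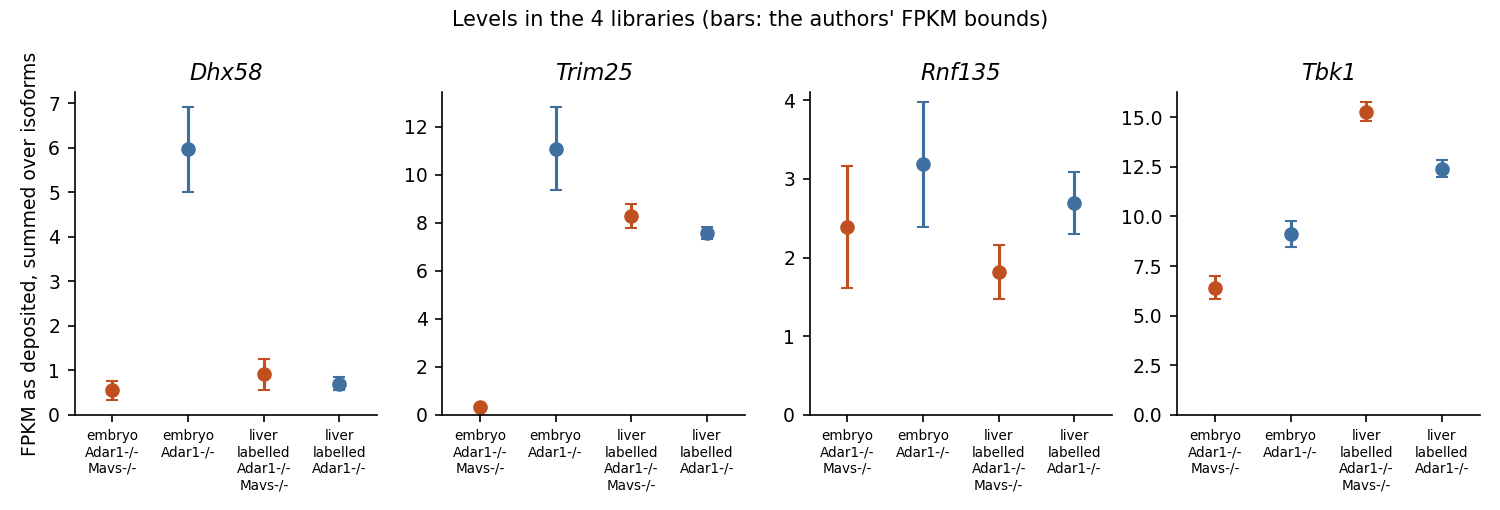
Deposited FPKM, summed over isoforms, of the 4 genes present in all 4 libraries, with 1 point per library and bars for the authors' bounds. Dhx58 and Trim25 were near 0 in the embryo Adar1-/- Mavs-/- library (0.552 and 0.342 FPKM) and at 5.97 and 11.1 FPKM in the embryo Adar1-/- library, while Rnf135 stayed between 1.82 and 3.19 FPKM over the 4 libraries.

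Traf3, the ubiquitin ligase that links MAVS to the kinases (mm9 chr12:112404581-112505364), was in the embryo values of the Adar1-/- Mavs-/- library alone, so that no embryo comparison was made. It had 7.90 FPKM there (6.95 to 8.86), of which 5.02 FPKM came from ENSMUST00000139162, a 645-base isoform whose estimate has the status of low data, and it was 2.10 FPKM per length of the longest reference isoform.

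In liver, 9 of the 10 genes were counted, and none was 2-fold apart: 0 were 2-fold or more lower and 0 2-fold or more higher. Of the 13847 counted liver genes, 9.74% were 2-fold or more lower, 6.52% 2-fold or more higher and 16.3% either way. Of the 9 genes, 4 lay below 0 and 5 above, with a median of 0.06, against -0.12 over all counted genes. Tissue, age and strain label differ together between embryos and livers, so their parts in the difference from the embryo values cannot be told apart.

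**Figure D2:**
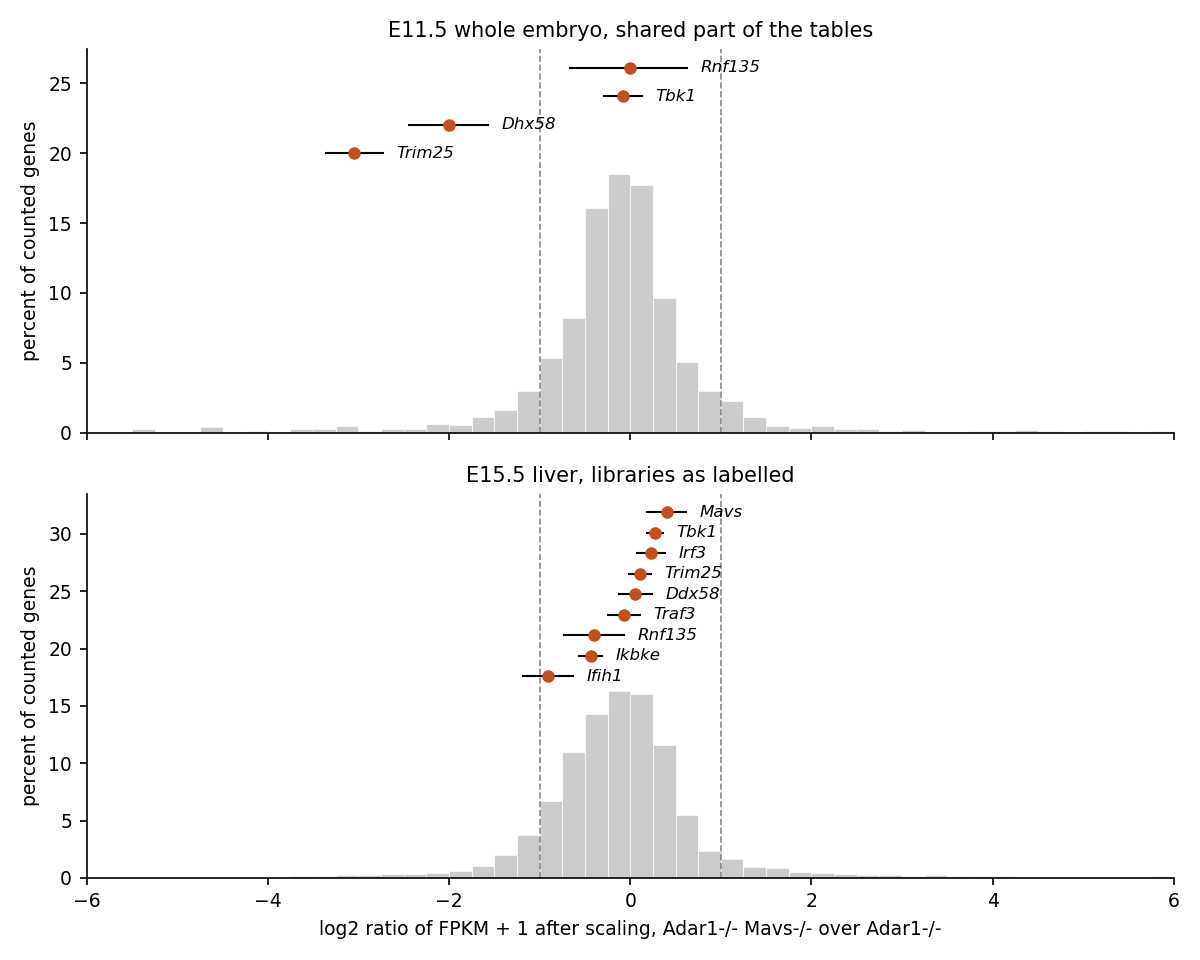
Log2 ratios, Adar1-/- Mavs-/- over Adar1-/-, in embryos (upper) and liver (lower): grey bars give the percent of counted genes per bin of the ratio, points the named genes with the range by their bounds (their height has no meaning), and dashed lines a 2-fold difference. Dhx58 (-2.00) and Trim25 (-3.05) lie in the lower tail in embryos, and all 9 counted genes lie within 2-fold in liver.

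Among the receptors, Ddx58, which encodes RIG-I, the sensor of short RNA with free triphosphate ends (mm9 chr4:40150806-40186861), had 6.19 FPKM (5.70 to 6.67) in the library labelled Adar1-/- Mavs-/- and 5.89 FPKM (5.47 to 6.30) in the library labelled Adar1-/-. The bounds overlap and the log2 ratio was 0.06, which turned to -0.47 with reference isoforms only. Its full-length ENSMUST00000037907 had 1.07 FPKM in the library labelled Adar1-/- Mavs-/- and 1.94 FPKM in the library labelled Adar1-/-. That isoform has the status of low data in both, and with isoforms of status OK only the ratio of Ddx58 was 0.30.

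Ifih1 encodes MDA5, the receptor for long double-stranded RNA and the one through which unedited RNA is known to signal (mm9 chr2:62432891-62484427). It had 4.53 FPKM (4.06 to 4.99) in the library labelled Adar1-/- Mavs-/- and 9.34 FPKM (8.25 to 10.4) in the library labelled Adar1-/-. The bounds are apart, and the log2 ratio of -0.91 (-1.18 to -0.63 by the bounds) was the lowest of the 10 genes in liver. Much of the level in the library labelled Adar1-/- sat in a single assembled block of 563 bases without an intron (chr2:62444118-62444680), which held 5.50 of the 9.34 FPKM. Without such blocks the ratio turned to 0.19, a removal that acted on the library labelled Adar1-/- only, since the other had none. In the library labelled Adar1-/- Mavs-/- an assembled isoform of 1134 bases over part of the same stretch (chr2:62441057-62444541) held 2.13 of the 4.53 FPKM. It was kept because it is shorter than its span. With all fragments per length of the longest reference isoform the ratio was -0.45. The full-length ENSMUST00000028259, present in both libraries, had 0.728 FPKM (0.623 to 0.833) in the library labelled Adar1-/- Mavs-/- and 2.88 FPKM (2.63 to 3.13) in the library labelled Adar1-/-, a log2 ratio of -1.17. Its estimate has the status of low data in the library labelled Adar1-/- Mavs-/-. A 2-fold lower value of Ifih1 came from 4 of the 10 alternatives, reference isoforms only among them.

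Mavs itself (mm9 chr2:131059799-131073761 over its reference isoforms) had 9.96 FPKM (9.17 to 10.7) in the library labelled Adar1-/- Mavs-/- and 7.26 FPKM (6.64 to 7.88) in the library labelled Adar1-/-. RNA of the gene was thus no lower in the library labelled as lacking it: the bounds are apart, the log2 ratio was 0.40, and it ran from 0.11 to 0.62 over the alternatives. Isoform spans, introns included, left no gap over the reference span in either library, but such spans cannot show a missing exon. The short isoform ENSMUST00000132694 (887 bases) had 5.60 FPKM in the library labelled Adar1-/- Mavs-/- and 3.92 FPKM in the library labelled Adar1-/-. For the 3057-base ENSMUST00000110199 the levels were 1.22 and 0.870 FPKM in that order. Both isoforms have the status of low data in both libraries. Blocks without an intron held 68.4% of the fragments counted under Mavs in the library labelled Adar1-/- Mavs-/- and 64.1% in the library labelled Adar1-/-, and the longest of them ran 3952 and 3885 bases past the last reference base. The sources used here do not give the deleted part of the allele, so the RNA level of Mavs does not check the label.

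**Figure D3:**
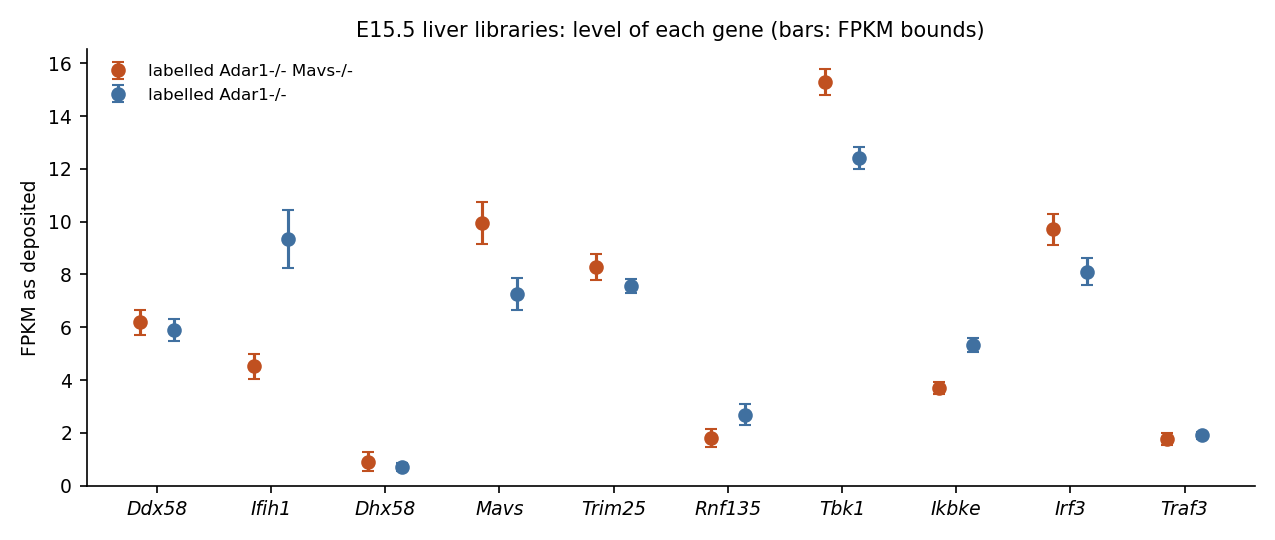
Deposited FPKM, summed over isoforms, of the 10 genes in the E15.5 liver libraries, with the library labelled Adar1-/- Mavs-/- left of the library labelled Adar1-/- and bars for the authors' bounds. The bounds are apart with the Adar1-/- Mavs-/- label higher for Mavs, Tbk1 and Irf3 and lower for Ifih1, Rnf135 and Ikbke.

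Downstream of Mavs, Traf3 had 1.78 FPKM (1.56 to 1.998) in the library labelled Adar1-/- Mavs-/- and 1.91 FPKM (1.78 to 2.03) in the library labelled Adar1-/-, which overlap (log2 ratio -0.07). In the library labelled Adar1-/- all its reference isoforms were listed at 0, and with reference isoforms only the ratio was 1.18. Inside its span of 100784 bases, 48 and 45 assembled blocks without a symbol held a length-weighted FPKM of 39.9 and 40.7 in the same order, more than the 8.17 and 14.0 counted under Traf3.

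Both kinases were measured in liver. Tbk1 had 15.3 FPKM (14.8 to 15.8) in the library labelled Adar1-/- Mavs-/- and 12.4 FPKM (12.0 to 12.8) in the library labelled Adar1-/-. This put it above the other 9 genes in both libraries, at the percentiles 70.7 and 65.0 among genes from 1 FPKM. The log2 ratio was 0.27 with bounds apart, but the full-length isoform went the other way (8.87 and 9.80 FPKM in the same order, log2 ratio -0.14), as did the value per length of the longest reference isoform (-0.14). With isoforms of status OK only it was 2.17, since the full-length isoform has the status of low data in the library labelled Adar1-/-. In that library 2.61 FPKM came from an 18150-base isoform that also runs over the neighbouring gene Xpot. That isoform held 47.3 of the length-weighted FPKM of 77.0 counted under Tbk1 there, so the value per length rests largely on it.

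Ikbke, which encodes IKKε, the inducible relative of TBK1 (mm9 chr1:133150920-133176183), had 3.70 FPKM (3.47 to 3.92) in the library labelled Adar1-/- Mavs-/- and 5.33 FPKM (5.07 to 5.60) in the library labelled Adar1-/-. The bounds are apart, and the log2 ratio of -0.44 kept its sign under all 10 alternatives (-0.65 to -0.28). The isoforms differed: ENSMUST00000062108 had 1.26 FPKM in the library labelled Adar1-/- Mavs-/- and was listed at 0 in the library labelled Adar1-/-, while ENSMUST00000161764 was listed at 0 in the library labelled Adar1-/- Mavs-/- and had 2.36 FPKM in the library labelled Adar1-/-.

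Irf3, the transcription factor at the end of the pathway (mm9 chr7:52253018-52258218), had 9.72 FPKM (9.13 to 10.3) in the library labelled Adar1-/- Mavs-/- and 8.10 FPKM (7.59 to 8.61) in the library labelled Adar1-/-, a log2 ratio of 0.23 with bounds apart. Its 1 reference isoform above 0, ENSMUST00000107835, had 8.39 FPKM (7.82 to 8.97) in the library labelled Adar1-/- Mavs-/- and 8.10 FPKM in the library labelled Adar1-/-, with overlapping bounds and a log2 ratio of 0.04. The rest of the level in the library labelled Adar1-/- Mavs-/-, 1.32 FPKM, belongs to a 14172-base isoform that also runs over Bcl2l12, Gm15545 and Scaf1, and with all fragments per length of the longest reference isoform the ratio became 1.16. Without strand information, reads of Irf3 and of Bcl2l12, which overlaps it on the opposite strand, may not be separated, and the same holds for Ikbke with Gm28914 and Gm28913 and for Traf3 with 4930595D18Rik.

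**Figure D4:**
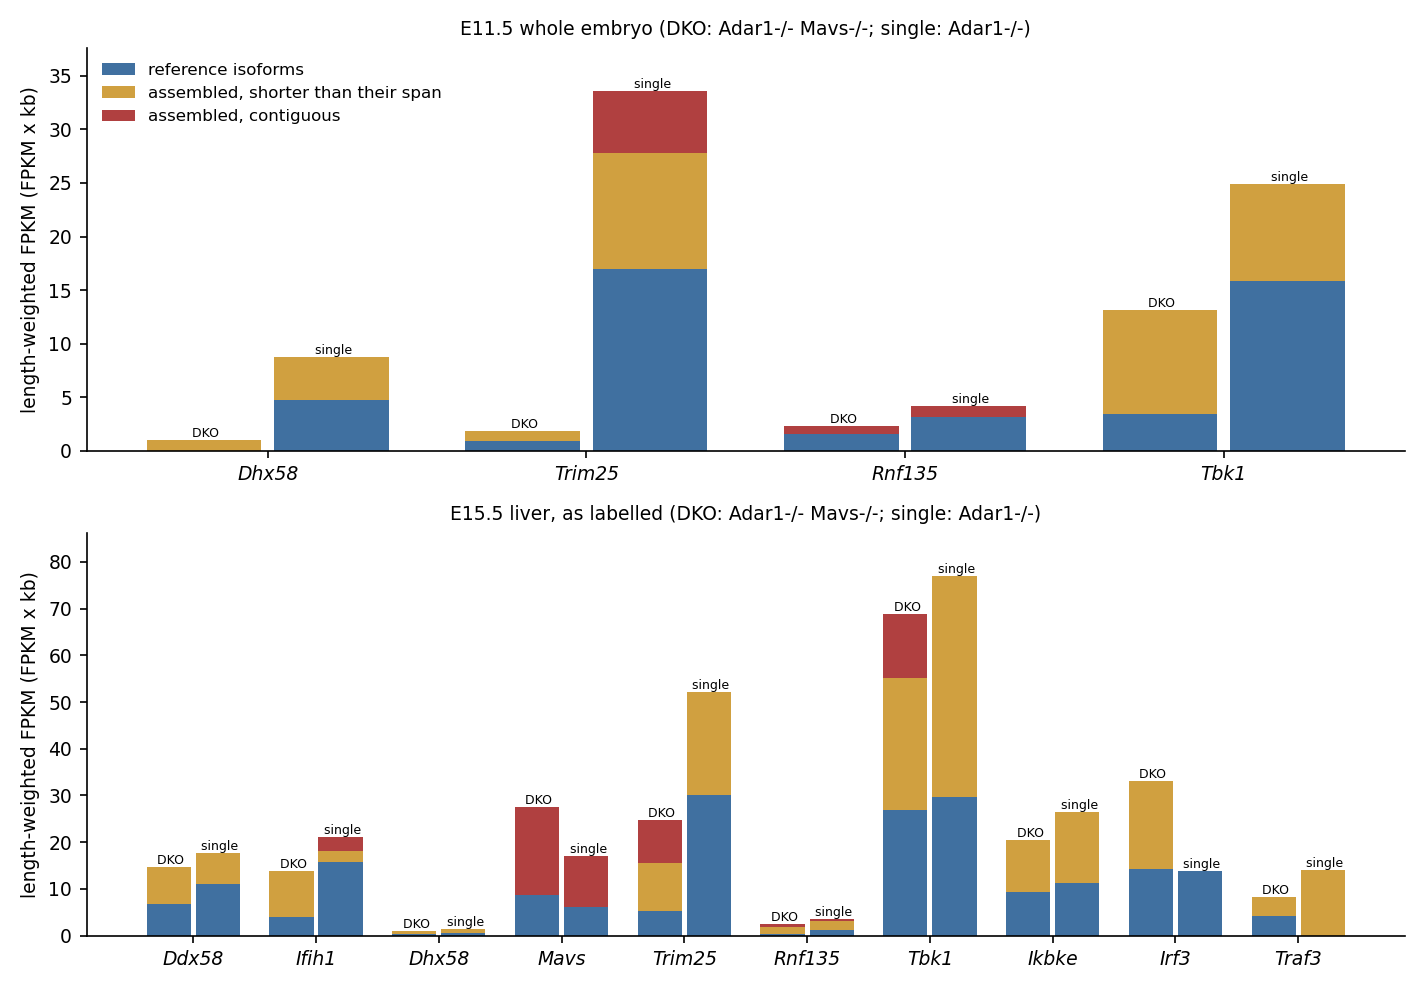
Length-weighted FPKM (FPKM times isoform length in kilobases) in embryos (upper) and liver (lower), stacked by kind of isoform: reference, assembled and shorter than their span, and assembled without an intron (contiguous). The left bar of each pair (DKO) is the library labelled Adar1-/- Mavs-/- and the right one (single) the library labelled Adar1-/-. Trim25 had 1.85 in the embryo Adar1-/- Mavs-/- library against 33.6 in the embryo Adar1-/- library, and in liver 24.8 against 52.0.

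By length-weighted FPKM, the order of the libraries was the same for all 4 embryo genes: Dhx58 had 0.996 and 8.80, Trim25 1.85 and 33.6, Rnf135 2.27 and 4.16, and Tbk1 13.2 and 24.9, with the Adar1-/- Mavs-/- library before the Adar1-/- library. These values are not scaled between libraries, and in the Adar1-/- Mavs-/- library isoforms without a symbol held 63.9% of the length-weighted FPKM, against 42.2% in the Adar1-/- library. FPKM as deposited, without scaling, shifts the median ratio of all counted embryo genes by -0.36, the same direction. The share of all embryo genes with this order was not computed, so the shared order is not read as a trait of these genes. Within Tbk1, blocks without a symbol numbered 16 in the Adar1-/- Mavs-/- library and 13 in the Adar1-/- library, holding a length-weighted FPKM of 10.04 and 16.2. Rnf135 had 1 such block in the Adar1-/- Mavs-/- library and 0 in the Adar1-/- library, the other way round from Trim25 and Dhx58. In liver, Irf3 had a length-weighted FPKM of 33.1 in the library labelled Adar1-/- Mavs-/- and 13.9 in the library labelled Adar1-/-, of which reference isoforms held 14.4 and 13.9 in the same order. Mavs had 27.5 and 17.1, and Ifih1 13.8 and 21.1, in that order.

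The other genes of the pathway were read from 5 lists with 91 genes. In embryos 12 were in both sets of values and 9 were counted: 1 was 2-fold or more lower and 1 2-fold or more higher in the Adar1-/- Mavs-/- library, with a median log2 ratio of -0.53 against -0.11 over all counted genes. The direction of that median rests on the isoforms summed: it turned to 0.60 with reference isoforms only and to 0.23 without assembled isoforms that lack an intron. Irf1, an interferon-induced transcription factor, had 1.72 FPKM in the embryo Adar1-/- Mavs-/- library and 23.4 FPKM in the embryo Adar1-/- library, a log2 ratio of -2.89, or -2.04 with reference isoforms only. Dhx33, a helicase reported to bind double-stranded RNA, had 14.5 FPKM in the Adar1-/- Mavs-/- library and 8.34 FPKM in the Adar1-/- library (log2 ratio 1.13), but per length of the longest reference isoform the ratio was 0.09. Of the most abundant genes of the lists, Ywhae, a 14-3-3 protein that carries activated RIG-I to the membrane, had 88.5 and 75.6 FPKM in the same order (log2 ratio 0.64), and Phb, a mitochondrial prohibitin, had 32.7 and 80.2 FPKM (log2 ratio -0.86, but 1.15 with reference isoforms only).

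In liver all 91 were in the values and 75 were counted, of which 3 were 2-fold or more lower, 2 2-fold or more higher and 70 within 2-fold. The median log2 ratio was -0.22, and 45 genes lay below 0, 60% of those counted, against 58% of all counted genes. By list, the median was -0.36 over 18 receptor partners and regulators, -0.24 over 18 partners of MAVS, 0.11 over 19 genes of the kinase complexes and the NF-kB arm, -0.44 over 12 transcription factors and early targets, and 0.02 over 8 other RNA and DNA sensors. Isg15, an interferon-induced relative of ubiquitin, had 1.73 FPKM in the library labelled Adar1-/- Mavs-/- and 7.30 FPKM in the library labelled Adar1-/- (log2 ratio -1.61). Nfkb1, a subunit of NF-kB, had 6.20 FPKM in the library labelled Adar1-/- Mavs-/- and 17.9 FPKM in the library labelled Adar1-/- (log2 ratio -1.40, but -0.98 and so not 2-fold per length of the longest reference isoform). The other 3 genes 2-fold apart were each listed at 0 in a library. The RNA-activated kinase gene Eif2ak2 had 32.4 FPKM in the library labelled Adar1-/- Mavs-/- and was listed at 0 in the other. Its reference isoforms were at 0 in both libraries, so the ratio was 0 with reference isoforms only. In the library labelled Adar1-/- a block of 12538 bases with 10.5 FPKM, counted under Gm6548, reached into the span of Eif2ak2. Rnf5, a ligase that acts on MAVS, had 3.48 FPKM in the library labelled Adar1-/- Mavs-/- and was listed at 0 in the other. Tkfc, a kinase that binds MDA5, was listed at 0 in the library labelled Adar1-/- Mavs-/- and had 3.55 FPKM in the library labelled Adar1-/-. The most abundant genes of the lists stayed within 2-fold: Phb2, the other prohibitin, had 69.1 and 122 FPKM (log2 ratio -0.82), Ywhae 84.1 and 121 FPKM (-0.53) and Hmgb1, a nucleic acid binding protein, 110 and 69.7 FPKM (0.64), with the library labelled Adar1-/- Mavs-/- before the library labelled Adar1-/-.

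**Figure D5:**
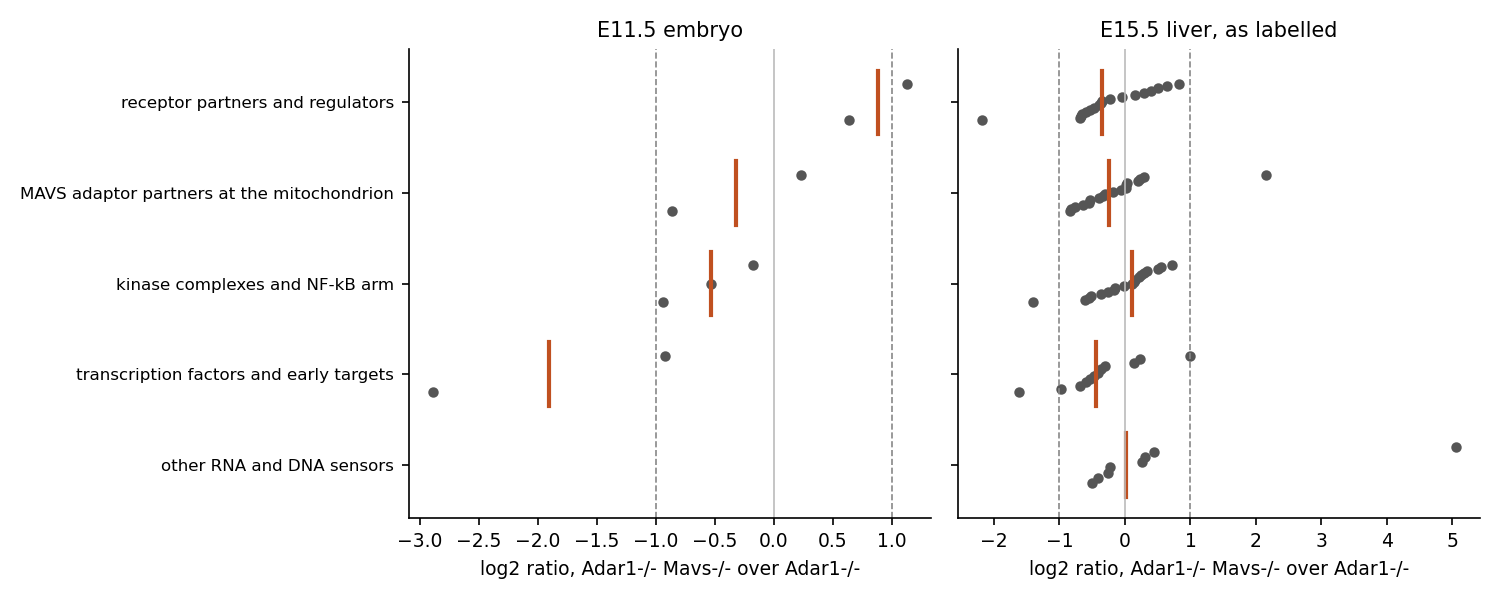
Log2 ratios, Adar1-/- Mavs-/- over Adar1-/-, of the counted genes of the 5 lists, 1 point per gene, in embryos (left) and liver (right), with orange bars for the median of a list and dashed lines for a 2-fold difference; the height of a point within its list has no meaning. In liver 70 of 75 genes lie between the dashed lines, and the point at 5.05 is Eif2ak2, which is listed at 0 in the library labelled Adar1-/-.

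Genes whose levels ran most like those of Dhx58 and Trim25 over the 4 libraries were taken from 1569 genes by the root mean square difference of their centred log2 levels. Nearest to Dhx58 were Cpsf6 (0.112), Znrf3 (0.215) and Nmt1 (0.233), where the median over all genes was 0.930. Cpsf6 had 14.95 FPKM in the embryo Adar1-/- Mavs-/- library and 70.7 FPKM in the embryo Adar1-/- library, and 18.6 and 19.2 FPKM in the liver libraries labelled Adar1-/- Mavs-/- and Adar1-/-. Nearest to Trim25 were Mfap3 (0.225), Slfn5 (0.317) and Gga3 (0.374), where the median over all genes was 1.402. All 3 were listed at 0 in the embryo Adar1-/- Mavs-/- library, while Mfap3 had 7.11 FPKM in the embryo Adar1-/- library and 6.88 and 7.39 FPKM in the liver libraries in the same order. A likeness over 4 libraries is a description of levels.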

How the data were processed

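Total RNA of 4 libraries was sequenced, 1 per group, from RNA extracted with Trizol, per the labels' protocols. Per the submitters' processing notes, the build was mm9 and the tools included TopHat 1.4.0 and Cufflinks 2.2.1, whose roles are not stated. The deposited FPKM values are given per isoform with bounds and a status, per the file headers. The deposited coverage is a fixed multiple of FPKM in each library and served only as a sign of depth. The sources used here give no read totals, strandedness or assembly options.

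Symbols came from GENCODE M21 by transcript identifier (86.7% to 90.2% matched; Mb21d1 was read as Cgas). Assembled isoforms were counted under the symbol of their Cufflinks gene that they overlapped best. Isoform values were summed per gene and the bounds' distances combined as the root of summed squares. The scaling factor brought the median ratio to 0 over genes that reached 5 FPKM on both sides (973 embryo and 6890 liver genes). Positions of isoforms are 1-based mm9 values from the deposited tables; promoter positions are GRCm38.p6.

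Groups follow the genotype labels. Levels were set side by side with no test, in Python 3.11.15 with pandas 2.3.3, numpy 2.4.6 and matplotlib 3.10.9. The computation was tested on simulated data. All 10 genes of the pathway are named; of the other lists, those 2-fold apart, at most 10 per tissue, and the 3 most abundant; and the 3 genes nearest to Dhx58 and to Trim25. The genes and lists were chosen with earlier results of these data known. Of the 10 alternatives, fragments per length of the longest reference isoform and leaving out assembled isoforms without an intron were chosen after seeing the data.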

Additional observations from a re-analysis of the deposited data

Results flagged for a closer look

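The 4 genes measured in both tissues had log2 ratios of opposite sign in embryos and in liver, Adar1-/- Mavs-/- over Adar1-/-; with 1 library per group the difference between the tissues was not tested. The signs near 0 are not stable. Among the alternatives, no filter on low values, counting from 5 FPKM and a pseudocount of 0.1 cannot change a sign, so each tally below includes them. Dhx58 was at -2.00 in embryos and 0.16 in liver, where it was below 1 FPKM in both libraries, with bounds on both sides of 0 (-0.25 to 0.54) and the same sign in 8 of 10 alternatives. Trim25 was at -3.05 in embryos and 0.11 in liver, where its bounds also span 0 (-0.01 to 0.23) and its sign held in 6 of 10 alternatives, down to -0.91. Rnf135 was at 0.00 in embryos, with bounds on both sides of 0 and its sign kept in 4 of 10 alternatives (negative, as in liver, in the rest), and -0.40 in liver. Tbk1 was at -0.08 in embryos, also with bounds on both sides of 0, and 0.27 in liver, where the sign held in 7 of 10 alternatives.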

How the results depend on the processing

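No paired analysis was possible because each group has 1 library. Of the 100 values of the 10 counts and medians under 10 alternatives, 81 stayed within 1.5 times the count or within the spread, and 19 moved by more; of 140 values of the 14 log2 ratios of the pathway genes, 101 moved by less than their bounds and 39 by more, and 0 of those called 2-fold changed sign. Counting from 5 FPKM and no filter on low values leave every ratio as it was, so their values could only fall among the 101. In embryos Dhx58 and Trim25 remained 2-fold or more lower under all 10 alternatives. Tbk1 joined them, making 3 of 4, with TPM (-1.01) and with reference isoforms only (-1.33). Over all embryo genes, 1247 were 2-fold or more lower with TPM and 215 with reference isoforms only, against 188. TPM shifted the median ratio of all counted embryo genes by -0.93, so the TPM value of Tbk1 is not read as a trait of the gene.

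Among all embryo genes, the 188 2-fold or more lower became 320 with FPKM as deposited, 1247 with TPM, 298 with isoforms of status OK only and 120 with length-weighted FPKM per length of the longest reference isoform. The 130 2-fold or more higher became 82 with FPKM as deposited and 202 with isoforms of status OK only. Among all liver genes, the 1349 lower became 2113 with a pseudocount of 0.1 and 805 when counted from 5 FPKM, and the 903 higher became 530 when counted from 5 FPKM and 1819 with isoforms of status OK only. The share of higher genes among those 2-fold apart, 40.9% in embryos and 40.1% in liver, became 20.4% as deposited and 8.98% with TPM in embryos, and 24.6% with TPM, 28.0% with reference isoforms only and 50.9% with status OK only in liver. These scalings shift the median ratio of all embryo genes by -0.36 (as deposited), 0.13 (upper quartile) and -0.93 (TPM), and of all liver genes by 0.11 (upper quartile) and -0.27 (TPM), by construction.

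Of the 10 pathway genes in liver, 1 (Ifih1) was 2-fold or more lower, against 0, with a pseudocount of 0.1, TPM, reference isoforms only or status OK only, and 1 was 2-fold or more higher, against 0, with reference isoforms only (Traf3), status OK only (Tbk1) or length-weighted FPKM per length (Irf3). The median of the other pathway genes, -0.53 in embryos and -0.22 in liver, became -1.11 in embryos and -0.46 in liver with TPM, and in embryos it changed sign, to 0.60 with reference isoforms only and 0.23 without assembled isoforms that lack an intron. The cause was not tested beyond the shifts given.

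In liver Dhx58 was below 1 FPKM in both libraries and its bounds overlapped. The part of depth in this was not tested. For genes from 5 FPKM, which leaves Dhx58 in liver out, the upper bounds lay a median of 4.36% to 7.26% from the value.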
